A study of Mus musculus with 6 samples.

Results

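The cytosolic ribosomal protein genes encode the protein component of the ribosome, and they were examined here in whole lungs of control and *Yap* mutant mouse embryos at 12.5 *dpc*. Members were chosen by symbol and by measured level, as all loci whose gene symbol has the form of a ribosomal protein gene of the large subunit (Rpl) or the small subunit (Rps), or is *Rpsa*, *Rplp0*, *Rplp1*, *Rplp2* or *Fau*, and whose mean over the control and *Yap* mutant values was 1 FPKM or more (fragments scaled by transcript length and by sequencing depth). That mean is the only measured value in the rule, but the members were chosen with earlier results of these data known. The ratios between genotypes are given as descriptions. Symbols of annotated pseudogenes and the ribosomal S6 kinase genes were left out, although the locus of *Rpl34* also carries the symbol *Rpl34-ps1*. Of 24402 loci in the table, 85 carried such a symbol and 82 of these reached the mean, of 12701 loci in all that reached it with a value above 0 in both genotypes.

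RNA was taken from whole lungs of 3 samples of wild-type and 3 of *Yap* f/f; *Shh* Cre/+ embryos, all C57BL/6, and sequenced as 6 libraries. The mutant embryos carry *Yap* flanked by loxP sites, and Cre recombinase made from the *Shh* locus deletes it in the lung epithelium but not in the mesenchyme, vessels or blood, all of which contribute to whole-lung RNA. The controls are described as littermates of the mutants and were labelled wild type. For each locus the authors deposited 1 value for the control lungs and 1 for the *Yap* mutant lungs. With 1 value per genotype there is no replicate check, no standard deviation and no test, so every comparison is a ratio of 2 values whose error is unknown, and the depth of the libraries is unknown as well.

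A ribosome is built from a small subunit, which reads the mRNA, and a large subunit, which joins the amino acids. Each protein is present in about 1 copy per ribosome, except for the paired proteins of the stalk, so growing tissues make the mRNAs of all of them in large and balanced amounts. Most of these mRNAs begin with a run of pyrimidines at the 5′ end, the terminal oligopyrimidine (TOP) tract, through which the growth-sensing kinase mTORC1 sets how strongly they are translated. YAP, which was removed from the epithelium of these lungs, is the nuclear effector of the Hippo pathway, acts through DNA-binding partners of the TEAD family and is best known for its part in organ growth.

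The ribosomal protein mRNAs stood at nearly the same level in both genotypes. Not 1 of the 82 loci differed by 1.2-fold or more, whereas 21.3% of all loci did (12.4% higher and 8.94% lower in *Yap* mutant lungs). None differed by 1.1-fold either, against a background of 41.4%, and none by 1.5-fold, against 7.96%. The widest gaps were a log2 ratio of *Yap* mutant over control of 0.097 at *Rpl22* and of -0.10 at *Rpl14*, so that the whole family lay within 1.07-fold. Of all loci, 46.8% lay within the same limits. At 1.05-fold, 14 of 82 members (17.1%) differed against 65.6% of all loci, with 13 higher in *Yap* mutant lungs against 32.4% and 1 lower, *Rpl14*, against 33.2%. In bulk samples such as these, fewer cells of a type and less RNA per cell cannot be told apart.

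The small differences leaned one way. A higher value in *Yap* mutant lungs, by any amount, was listed for 61 of 82 members (74.4%), against 48.2% of all loci, and a lower value for 21 members, against 51.8%. The median log2 ratio was 0.032 with quartiles at -0.00020 and 0.055, and the middle 50% of members thus spanned 0.055, against 0.22 for all loci, whose median was -0.0061. The lean depended on how the 2 genotypes were scaled to each other. With the values scaled to the same sum over all loci, 79 members were higher and 3 lower, with a median of 0.076, and with the same sum over loci that have a symbol and are no members, 73 were higher and 9 lower, with a median of 0.052. The sums over all loci differed by -16184 FPKM (*Yap* mutant minus control). Of this, -11950.2 FPKM came from 3 short loci without a symbol, so the scaling over all loci rests largely on those 3, here and below. With the median of all loci set to 0, 65 were higher and 17 lower.

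**Figure D1:**
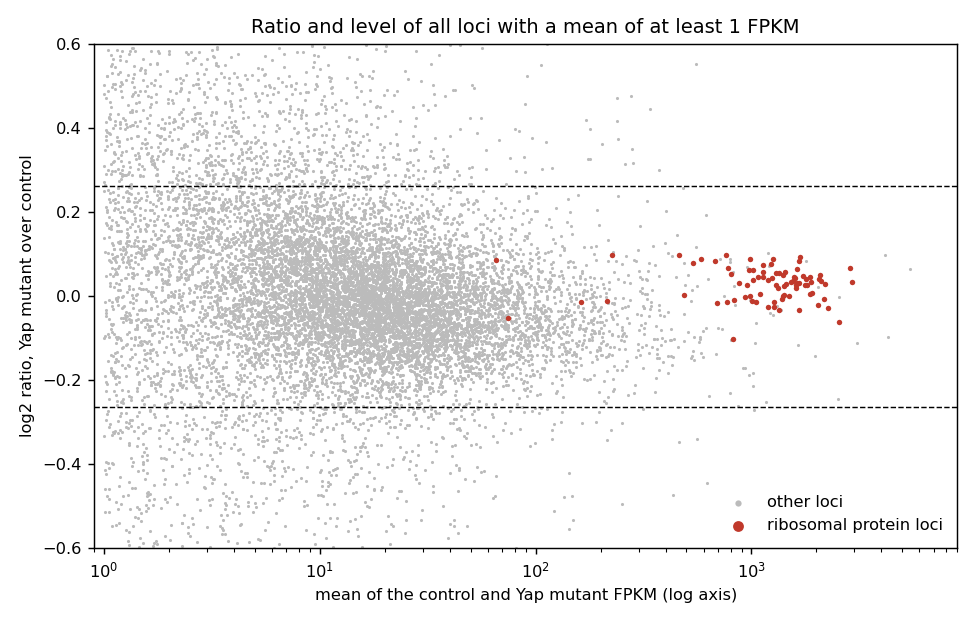
Log2 ratio of *Yap* mutant over control (vertical axis, cut at ±0.6) against the mean of the control and *Yap* mutant FPKM (horizontal log axis) for the 12701 loci with a mean level of at least 1 FPKM, with the 82 ribosomal protein loci in red and dashed lines at 1.2-fold. All red points lie between the dashed lines, mostly at the far right of the plot, while 977 grey points fall outside the axis.

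A high level did not by itself go with so narrow a spread. Among the 693 other loci with a mean level of at least 100 FPKM, 9.24% differed by 1.2-fold or more, the middle 50% spanned 0.14, and 56.9% lay within the limits of the ribosomal protein loci. Among the 68 other loci with a mean level of at least 500 FPKM, 1 was higher and 6 were lower by 1.2-fold or more, and 34 lay within those limits. Abundant loci also leaned the other way, with 32.7% of the 1637 other loci of at least 50 FPKM higher in *Yap* mutant lungs and a median of -0.051. With the same sum over all loci the share was 47.4% and the median -0.0072. The plot of ratio against mean level shows the ribosomal protein loci as a flat group at its right side.

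Ribosomal protein mRNAs were among the most abundant transcripts of the embryonic lung. They made up 38 of the 50 loci with the highest mean, 67 of the first 100 and 77 of the first 200. The median member had a mean of 1319 FPKM, with quartiles at 979 and 1659, whereas the median of all loci was 12.9 FPKM. A mean of at least 1000 FPKM was reached by 59 of 82 members. In spite of the fixed proportions of the proteins, the mRNAs were not level with each other, and the highest member exceeded the lowest 44.4 times, or 18.0 times when paralogs were set aside. Over the 82 members, log2 levels in control and *Yap* mutant lungs had a Pearson correlation of 0.999, a description over loci measured in the same 2 pools, and the log2 ratio showed little relation to the mean level (Spearman -0.11).

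**Figure D2:**
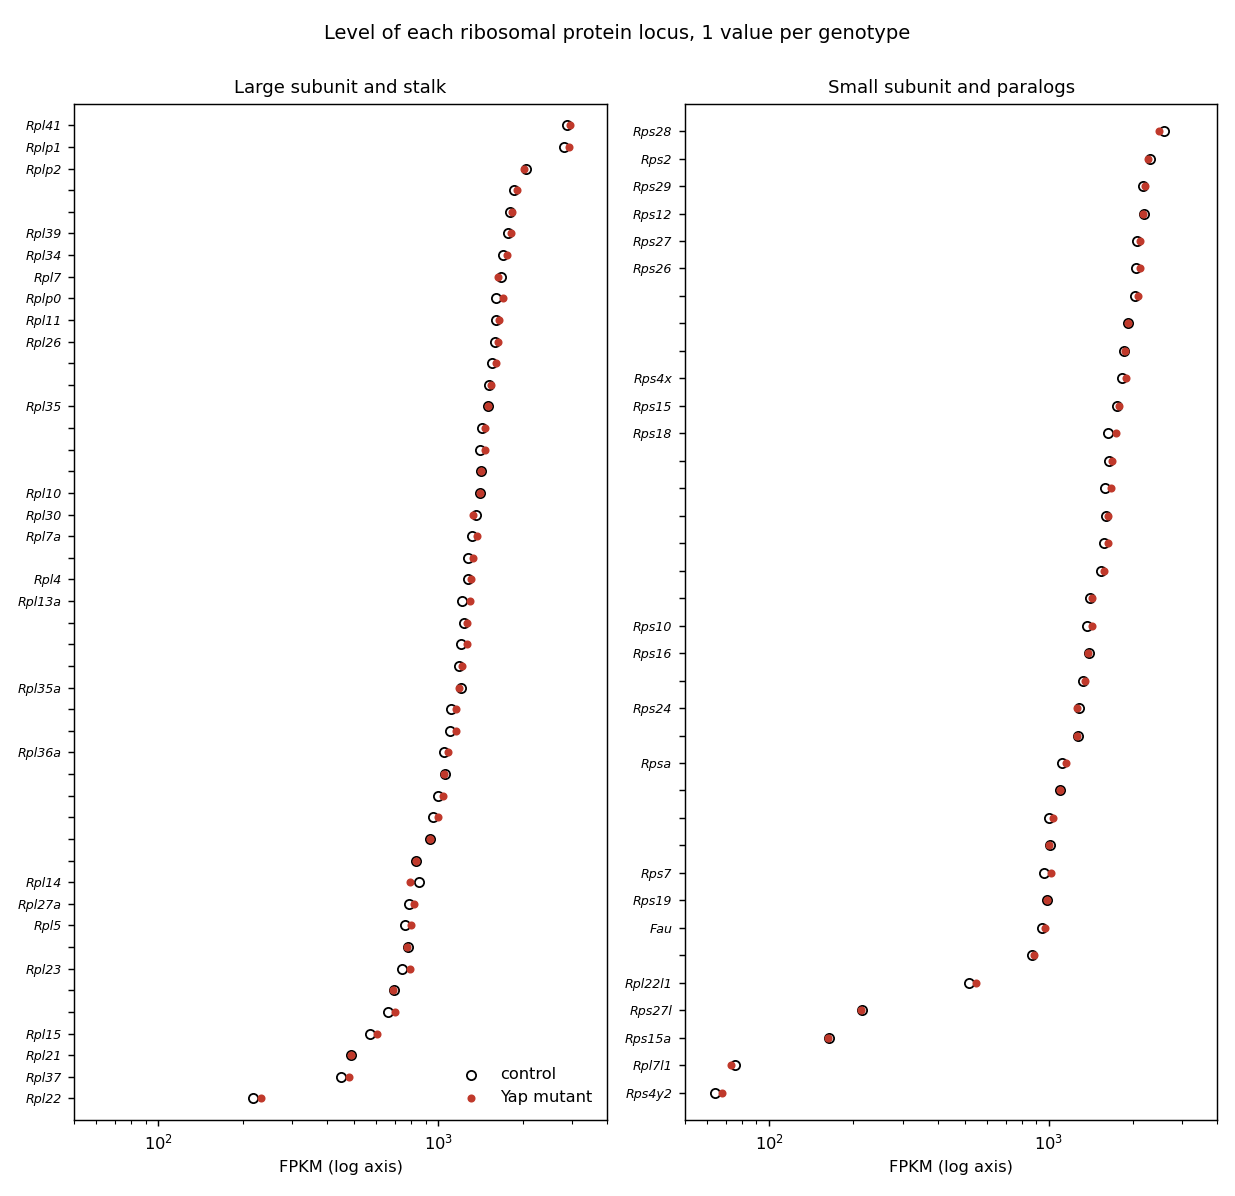
FPKM (log axis) of every ribosomal protein locus in control lungs (open circles) and *Yap* mutant lungs (red points), ordered by mean level within the large subunit and stalk (left) and the small subunit and paralogs (right), with 1 value per genotype and no error bars. Only loci named in the text are labelled, and in each line the 2 symbols nearly coincide, while levels run from 65.8 FPKM for *Rps4y2* to 2925 FPKM for *Rpl41*.

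The most abundant member was *Rpl41* (chr10:128548110-128549168 in mm10), which encodes a peptide of very few residues lying between the subunits, with 2890.0 FPKM in control lungs and 2960.1 FPKM in the mutants. The stalk gene *Rplp1* (chr9:61913283-61914510) followed with 2804 and 2936 FPKM, and *Rps28* (chr17:33810523-33824502), whose protein lies near the path by which mRNA leaves the small subunit, with 2585 and 2478 FPKM. *Rps2*, which lines the entry of the mRNA channel, had 2296 and 2251 FPKM. Thus of these 4 loci, *Rpl41* and *Rplp1* were listed higher in *Yap* mutant lungs and *Rps28* and *Rps2* lower. The next 4 all belong to the small subunit. *Rps29*, a zinc-binding protein of its head, had 2168 and 2210.4 FPKM, *Rps12*, in its beak, had 2179 and 2169.9 FPKM, *Rps27*, another zinc-binding protein, had 2064 and 2116 FPKM, and *Rps26*, at the mRNA exit, had 2044 and 2117 FPKM. The order of neighbours in this list shifted between genotypes, since *Rps12* stood above *Rps29* in control lungs and below it in *Yap* mutant lungs.

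The lowest levels belonged to paralogs and to a few core genes. *Rps4y2* had 63.9 FPKM in control lungs and 67.8 FPKM in the mutants, *Rpl7l1* had 75.5 and 72.8 FPKM, and *Rps15a*, a core protein of the small subunit, had 163 and 162 FPKM. These 3 were also the members closest to the required mean of 1 FPKM, with means of 65.8, 74.2 and 163 FPKM, so the threshold cut through an empty range. Below it lay *Rpl39l* with 0.168 and 0.173 FPKM, *Rpl3l* with 0.0141 and 0.0573 FPKM, and *Rpl10l*, which was listed at 0 in both genotypes. These are copies known mainly from testis and, for *Rpl3l*, from striated muscle. Among the remaining low core genes, *Rpl22* had 218 and 233 FPKM, *Rpl37* had 447 and 479 FPKM and *Rpl21* had 488 and 489 FPKM.

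The 43 core genes of the large subunit outside the stalk had summed levels of 51455 FPKM (control) and 52560.2 FPKM (*Yap* mutant), a ratio of 1.02. Of them 34 were listed higher and 9 lower, with a median log2 ratio of 0.037. *Rpl22* (chr4:152325878-152334071), a large-subunit protein that is not needed for translation as such and binds RNA, had the highest ratio of all members, 0.097 (218 and 233 FPKM). *Rpl37*, a zinc-binding protein of the large subunit, had 447 and 479 FPKM (0.097). *Rpl23*, which faces the small subunit and can also bind the p53 regulator MDM2, had 739 and 791 FPKM (0.097). All 3 were among the less abundant of the large-subunit mRNAs. *Rpl13a*, whose protein can leave the ribosome to silence inflammatory mRNAs, had 1217 and 1295 FPKM (0.089), and *Rpl15*, an early-joining core protein, had 569 and 604 FPKM (0.087).

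The lowest ratio of the family also belonged to the large subunit. *Rpl14* (chr9:120571473-120574653), which encodes a protein of its solvent-facing side, had 853 FPKM in control lungs and 795 FPKM in the mutants (-0.10), and it was the single member that was lower by 1.05-fold or more. *Rpl7*, an RNA-binding core protein, had 1679 and 1640.2 FPKM (-0.034). *Rpl30*, which is known in yeast for repressing its own transcript, had 1364 and 1332 FPKM (-0.034). *Rpl35a* had 1204 and 1183 FPKM (-0.026). After *Rpl14*, the remaining lower values of the large subunit were thus small, and with the same sum over all loci *Rpl14* was the only core gene of this subunit that was still lower, among 43. Under that scaling 39.9% of all loci were lower.

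The stalk is the flexible arm of the large subunit that draws elongation factors to the ribosome, and it consists of RPLP0 with pairs of RPLP1 and RPLP2. *Rplp0*, the base of the arm, had 1608 FPKM in control lungs and 1703 FPKM in the mutants (0.083). *Rplp1* had 2804 and 2936 FPKM (0.066), and *Rplp2* had 2053 and 2023 FPKM (-0.021). The partners *Rplp1* and *Rplp2* therefore had ratios of opposite sign as deposited, although with the same sum over all loci *Rplp2* was higher as well. Their levels both exceeded that of *Rplp0* in each genotype.

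The 32 core genes of the small subunit had summed levels of 48459 FPKM (control) and 49155 FPKM (*Yap* mutant), a ratio of 1.01. Of them 23 were listed higher and 9 lower, with a median log2 ratio of 0.026. *Rps18*, in the head of the subunit, had 1624 and 1731 FPKM (0.092), the highest ratio of the small subunit, and *Rps7* had 958 and 1018 FPKM (0.088). *Rps28* had the lowest (2585 and 2478 FPKM, -0.061), followed by *Rps2* (2296 and 2251 FPKM, -0.028) and *Rps24* (1284 and 1260.4 FPKM, -0.026). The ranges of both subunits overlapped almost wholly, from -0.10 to 0.097 in the large and from -0.061 to 0.092 in the small subunit. With the same sum over all loci, 42 of 43 genes of the large and 31 of 32 of the small subunit were higher in *Yap* mutant lungs. Of all loci, 60.1% were higher under that scaling.

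**Figure D3:**
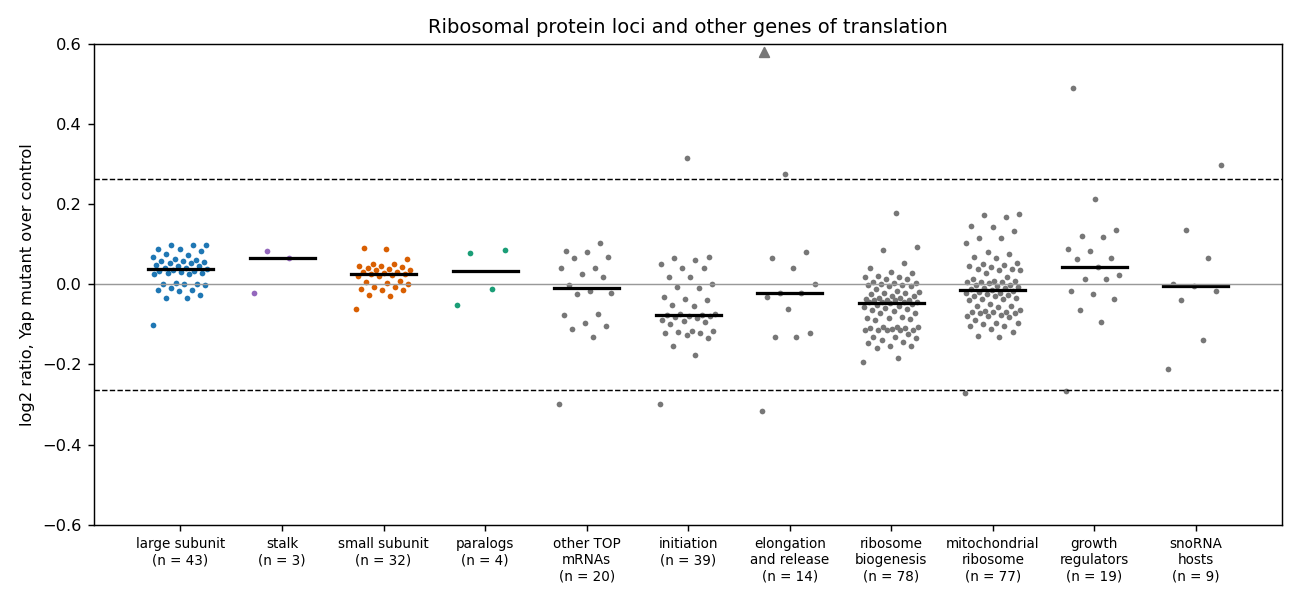
Log2 ratio of *Yap* mutant over control for each locus (points) and the median of each set (bars), for the 4 sets of ribosomal protein loci in colour and 7 other sets of genes of translation and growth in grey, with dashed lines at 1.2-fold and a triangle for *Eef1a2*, which lies beyond the axis. The coloured points crowd just above 0 and stay between the dashed lines, while most grey points of initiation and ribosome biogenesis lie below 0.

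RPL5 and RPL11 carry the 5S rRNA into the large subunit and, when unassembled, bind MDM2 and so stabilise p53. *Rpl5* had 761 and 797 FPKM (0.067) and *Rpl11* had 1612 and 1648 FPKM (0.032). The 9 genes best known from Diamond-Blackfan anaemia, in which loss of 1 copy of a ribosomal protein gene impairs red cell production in people, had 6 higher and 3 lower values and a median ratio of 0.032. *Rps19*, the gene most often affected, was listed at 985 FPKM in both genotypes, *Rps10* had 1372 and 1421 FPKM (0.051) and *Rps26* had 2044 and 2117 FPKM (0.050). *Rps7*, *Rps24*, *Rpl5*, *Rpl11* and *Rpl35a*, given above, belong to the same list. The 8 genes whose proteins ring the opening of the peptide exit tunnel had 7 higher and 1 lower value, with a median ratio of 0.033 and a range from -0.0020 to 0.097.

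On the X chromosome, all 4 ribosomal protein loci were listed higher in *Yap* mutant lungs, by a median of 0.042, where 74.4% of all members and 48.2% of all loci were higher. *Rpl10*, which joins late and helps shape the catalytic centre, had 1404 and 1405 FPKM (0.00032), and *Rpl39*, which lines the exit tunnel, had 1767 and 1816 FPKM (0.040). *Rpl36a* had 1049.9 and 1084 FPKM (0.046), and *Rps4x*, a small-subunit protein that in people has a copy on the Y chromosome, had 1830.0 and 1888 FPKM (0.045). These ratios lay inside the range of the autosomal members. Transcripts of 4 Y-linked genes (*Ddx3y*, *Eif2s3y*, *Kdm5d* and *Uty*) were listed between 0 and 0.0163 FPKM in control lungs, with 2 of them at 0, and from 4.61 to 16.5 FPKM in the mutants, so Y-linked RNA was nearly confined to the mutant pool among these 2 pools. The part of this difference in the values of X-linked loci was not tested.

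Paralogs are second copies that can take the place of a core protein. *Rpl22l1* had 520.0 FPKM in control lungs and 549 FPKM in the mutants (0.079), which was 2.39 and 2.36 times the level of *Rpl22*, whose protein is known to restrain *Rpl22l1*. It was the 1 member paralog that exceeded its core gene, and it supplied 70.5% of the pair in control and 70.2% in *Yap* mutant lungs. *Rps27l*, known as a p53 target, had 214 and 212 FPKM (-0.012) and supplied 9.40% and 9.12% of its pair with *Rps27*. *Rpl7l1* supplied 4.30% and 4.25% of its pair with *Rpl7* (ratio -0.051), and *Rps4y2* supplied 3.37% and 3.47% of its pair with *Rps4x* (ratio 0.085). In these 4 pairs the share of the paralog was thus within 1 percentage point between genotypes. Because paralogs and their core genes are alike in sequence, reads may have been divided between them, and these shares are uncertain to that extent.

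A pair of genes for ribosomal proteins have symbols of another form and are not among the 82. Their values were looked up after those of the members were known. *Gnb2l1*, now named *Rack1* and the scaffold at the back of the small subunit, had 1149 and 1234 FPKM (0.10). *Rpl36al*, an autosomal copy of *Rpl36a*, had 401 and 387 FPKM (-0.049). It supplied 27.6% of its pair with *Rpl36a* in control and 26.3% in *Yap* mutant lungs, a wider change than in the pairs above. The ratio of *Gnb2l1* lay just above the highest of the 82 members and that of *Rpl36al* inside their range, and neither reached 1.2-fold.

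Together the 82 loci held 107253 FPKM in control lungs and 109279 FPKM in the mutants, a ratio of 1.02. As a share of the sum over all loci this was 19.9% in control and 20.9% in *Yap* mutant lungs. The share rested in part on the sum beneath it, which was 538651 FPKM in control lungs and 522467 FPKM in the mutants. Of that difference of -16184 FPKM, -12581 FPKM came from 1276 loci without a symbol, and -11950.2 FPKM from only 3 of those, each 103 to 132 bases long. One of them, at chr12:31020189-31020297, had 8102 FPKM in control lungs and 45.4 FPKM in the mutants. Over loci with a symbol, the ribosomal protein loci held 20.9% and 21.4%.

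The ribosomal protein genes shared several features that had no part in how they were chosen. They were spread over 20 chromosomes, with 14 on chromosome 7 and 4 on the X. Of the 82, 81 overlapped the protein-coding gene of the same name in the GENCODE annotation of GRCm38, and the remaining locus, *Rps4y2*, is listed by RefSeq as a synonym of *Rps4l*, a transcribed pseudogene, so its label as a protein gene does not hold in that annotation. Coding lengths were short, with a median of 453 bases against 1400 for 11449 other protein-coding genes, and ran from 75 bases in *Rpl41* to 1257 bases in *Rpl4*, a protein that reaches into the exit tunnel. Neither the mean level (Spearman -0.13) nor the ratio (0.12) followed the coding length over the 81 genes. Within the bounds of 30 of the 81 genes (37.0%) lay a small nucleolar RNA (snoRNA) on the same strand, 58 in all, against 1.46% of the other protein-coding genes. SnoRNAs guide the chemical modification of rRNA, so these genes give both protein and guide RNA for the ribosome. The most, 5, lay in *Rpl4*, and 4 lay in *Rpl13a*. Members with and without a snoRNA had median ratios of 0.033 and 0.030.

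Promoters gave a further common feature. RefSeq promoters of GRCm38.p6, running from 250 bases before to 50 bases after the annotated start, were found for 61 of 82 members, 72 promoters in all. A run of at least 8 pyrimidines (C or T) on the sense strand, reaching into the 30 bases around the start, was present in 33 of 72 (45.8%), against 17.4% of the promoters of protein-coding genes and 17.6% of all promoters. The following windows show the 15 bases before and the first 15 bases after the start, with the run in capitals, for members with long runs from both subunits and for those whose values are described above, and at the end for a pair of members without a run.
Rpl7a, chr2:26910792-26910821, + strand: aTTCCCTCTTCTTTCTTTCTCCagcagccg
Rpl27a, chr7:109519180-109519209, + strand: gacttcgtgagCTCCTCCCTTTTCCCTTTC
Rpl35, chr2:39005117-39005146, - strand: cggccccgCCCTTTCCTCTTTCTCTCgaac
Rpl15, chr14:18270972-18271001, - strand: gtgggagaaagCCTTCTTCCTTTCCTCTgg
Fau, chr19:6057932-6057961, + strand: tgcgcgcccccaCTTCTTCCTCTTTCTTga
Rpl14, chr9:120571502-120571531, + strand: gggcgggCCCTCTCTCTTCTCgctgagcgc
Rps18, chr17:33955651-33955680, - strand: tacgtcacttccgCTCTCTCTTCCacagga
Rplp2, chr7:141447636-141447665, + strand: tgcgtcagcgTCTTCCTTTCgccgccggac
Rpl41, chr10:128549154-128549183, - strand: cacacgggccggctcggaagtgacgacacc
Rpl23, chr11:97782425-97782454, - strand: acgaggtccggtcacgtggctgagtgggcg

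In these windows the run of *Rpl14*, the member with the lowest ratio, and the run of *Rps18*, with the highest ratio of the small subunit, both cross the annotated start. *Rpl41* and *Rpl23*, whose mean levels of 2925 and 765 FPKM lie far apart, show no run. A window without a run says only that these letters are not found around that annotated start, which may differ from the start used in the lung.

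Factor motifs were searched as plain letters on both strands of the same promoters. The TEAD motif GGAATG, to which the partner of YAP binds, was found in 6 of 72 promoters (8.33%), against 13.6% for protein-coding genes and 14.7% for all promoters. Those 6 belonged to *Rpl22*, *Rpl26*, *Rps16*, *Rps24*, *Rps26* and *Rps27*, with ratios of 0.097, 0.027, -0.0061, -0.026, 0.050 and 0.036. The match of *Rpl22* lay in a promoter whose start is at -1442 bases from the start of the measured locus. Its other promoter, at -152 bases, held no match. Without *Rpl22* the ratios ran from -0.026 to 0.050, inside the family range of -0.10 to 0.097. The ETS motif CCGGAAG was found in 26 promoters (36.1%, against 11.6% for protein-coding genes), the YY1 motif AAGATGGC in 9 (12.5%, against 3.05%) and the SP1 motif GGGCGG in 45 (62.5%, against 46.2%). NRF1 letters GCGCATGC were present in 3 (4.17%, against 3.51%) and the TATA letters TATAAA in 7 (9.72%, against 12.6%). A match of letters is a description and shows no binding.

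**Figure D4:**
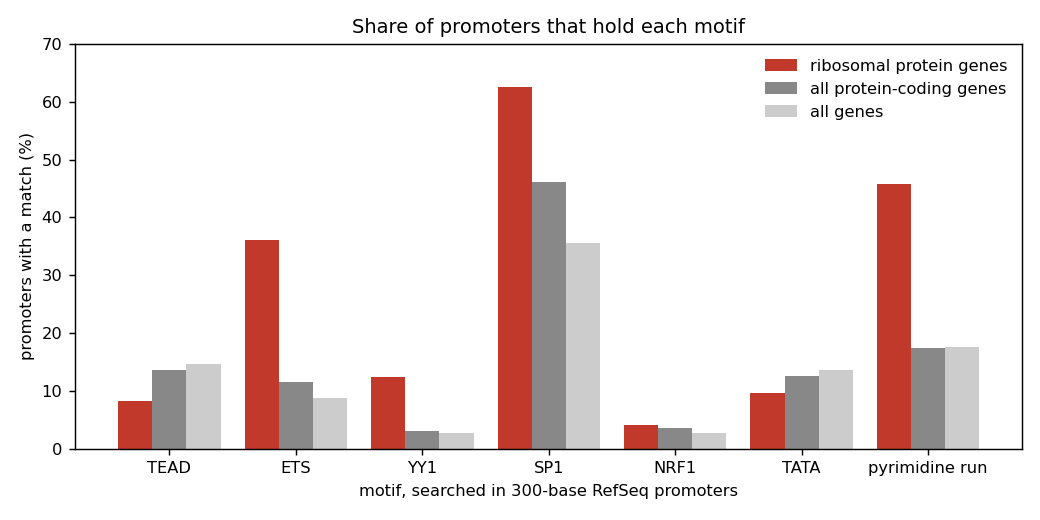
Percent of promoters (vertical axis, from 0) that hold each motif, for 72 promoters of ribosomal protein genes (red), 21262 promoters of protein-coding genes (dark grey) and 32851 promoters of all genes (light grey). The red bars for the pyrimidine run and for ETS, YY1 and SP1 stand above both grey bars, and those for TEAD and TATA stand below them.

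Other genes with a TOP tract were split more evenly than the ribosomal protein loci. Of 20 such loci, which include elongation factors and *Npm1*, 9 (45%) were listed higher and 11 lower. Their median was -0.0099, which turned to 0.034, with 65% higher, with the same sum over all loci. All had at least 117 FPKM in each genotype. Among the 693 other loci of at least 100 FPKM, 30.9% were higher, with a median of -0.056. With the same sum over all loci these were 44.4% and -0.012, and the difference of the TOP loci from these shares was not tested. The one TOP locus past 1.2-fold was *Eif2s3x*, an X-linked subunit of an initiation factor, with 144 FPKM in control lungs and 117 FPKM in the mutants (-0.30). It no longer passed with the same sum over all loci. The 9 non-coding snoRNA host genes tested had 4 higher and 5 lower values (median -0.0043, or 0.040 with the same sum over all loci), with *Snhg6* past 1.2-fold at 72.7 and 89.4 FPKM (0.30). Genes named here and in the next paragraphs were chosen after their values were seen, apart from *Eef1a2* and *Yap1*.

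Most factors that start translation and most that build ribosomes were listed lower, as were most other loci of like level. Of 39 initiation factor loci, 29 (74.4%) were lower, with a median of -0.076, and of 78 ribosome biogenesis loci 62 (79.5%) were lower, with a median of -0.046. The loci of these lists had median levels of 105 and 35.1 FPKM. Among other loci, 69.1% were lower at a mean of 100 FPKM or more, 67.3% at 50 FPKM or more and 59.9% at 10 FPKM or more, and the differences of the lists from these shares were not tested. With the same sum over all loci, the lower shares were 61.5% for initiation and 53.8% for biogenesis, against 55.6%, 52.6% and 44.7% of other loci at those minimum means. No biogenesis locus reached 1.2-fold, and their ratios ran from -0.19 to 0.18. *Nop56*, a core protein of the particles that methylate rRNA, had 116 and 105 FPKM (-0.15), its methylase *Fbl* had 222 and 205 FPKM (-0.11), and the nucleolar chaperone *Npm1* had 1319 and 1298 FPKM (-0.023). Among initiation factors, *Eif4ebp1*, which restrains cap binding and is switched off by mTORC1, was higher by 1.2-fold or more (34.8 and 43.3 FPKM, 0.31), and *Eif2s3x* was lower.

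Of 14 elongation and release factors, 6 were listed higher and 8 lower. *Eef1a2*, the form of the tRNA-delivering factor found in muscle and neurons, was the single gene of these lists past 1.5-fold, with 0.582 FPKM in control lungs and 3.75 FPKM in the mutants (log2 ratio 2.69). *Gspt2* was higher (1.99 and 2.41 FPKM) and *Eif5a2* lower (6.98 and 5.60 FPKM) by 1.2-fold or more. Ribosomal proteins of mitochondria, which form a separate ribosome, had 31 higher and 46 lower values among 77 loci (median -0.015), a split that turned to 51 higher and 26 lower with the same sum over all loci. Of all loci, 48.2% were higher as deposited and 60.1% with that scaling. The only mitochondrial ribosomal protein locus past 1.2-fold was a low locus of *Mrpl52* (1.79 and 1.49 FPKM), and none of the 77 passed with the same sum over all loci.

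Among 19 known regulators of ribosome production that could be compared, 13 were listed higher and 6 lower. *Myc*, which drives transcription of ribosomal protein and biogenesis genes, had 35.4 FPKM in control lungs and 49.7 FPKM in the mutants (0.49), and its relative *Mycn* had 29.7 and 24.7 FPKM (-0.27), the latter within 1.2-fold under each of the 3 other scalings. No other locus of the list with a mean of at least 1 FPKM passed 1.2-fold.

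The makeup of the 2 pools was not the same in other respects. *Yap1* itself (chr9:7932001-8004596) had 76.1 FPKM in control lungs and 65.6 FPKM in the mutants (-0.21), a value that includes the cells in which *Shh* Cre is not active. Epithelial markers were lower for 13 of 16 genes, 11 of them by 1.2-fold or more, with *Nkx2-1*, the regulator of lung identity, at 61.9 and 35.9 FPKM, and their median log2 ratio was -0.62. The 16 summed to 679 and 608 FPKM, a sum that includes 3 genes higher by 1.2-fold or more, of which *Id2* had 118 and 211 FPKM, and none was at 0 in either genotype. Mesenchymal markers had 8 higher and 7 lower values among 15 loci, with 3 higher and 6 lower by 1.2-fold or more. *Ptch1*, a target of Hedgehog signalling, had 44.8 and 12.6 FPKM (-1.83), and the 15 loci summed to 1424 and 1352 FPKM. Cardiac muscle markers were higher at 10 of 10 loci compared, with summed levels of 122 and 888 FPKM over 12 loci, and liver markers at 3 of 4, with sums of 9.63 and 41.7 FPKM over 10 loci. The 3 higher liver loci were *Afp* (5.42 and 22.3 FPKM), *Ttr* (0.492 and 13.5 FPKM) and *Apoa1* (1.27 and 3.65 FPKM), and *Alb* was lower (1.28 and 1.14 FPKM). The remaining liver loci had means under 1 FPKM, with *Apoa2* and *Serpina1a* lower and the others higher. Erythroid markers were higher at 8 of 9 loci, with sums of 5933 and 6357 FPKM over 11 loci. No marker locus of these 3 tissues was at 0 in either genotype. The part of these tissues in the values of the ribosomal protein loci was not tested.

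The bounds of some loci and their near-identical copies limit what single values mean. A set of 11 members was treated as having wide loci. In all of them but *Rps4y2* the locus was more than 1.5 times as long as the annotated gene. For *Rps4y2* GENCODE held no protein-coding gene of that name to compare with, and its locus spanned 396937 bases. The locus of *Rps15* spanned 672333 bases and 45 other protein-coding genes. Ratios of these 11 ran from -0.061 (*Rps28*) to 0.085 (*Rps4y2*), and without them 54 members were listed higher and 17 lower. GENCODE lists 300 pseudogenes under ribosomal protein symbols ending in -ps and a number, and only 3 loci of the table carry a pseudogene symbol and no member, with means between 1.14 and 4.69 FPKM. How reads that match both a gene and its copies were assigned is not given in the sources used here, and each level is uncertain to that extent.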

How the data were processed

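Whole-lung RNA was sequenced from 3 control and 3 *Yap* mutant samples as stranded paired-end libraries. The submitters' processing notes name TopHat, Cuffdiff and mm10, with no version. The authors deposited 2 tables, and the table of all loci was used, which lists 1 FPKM value per genotype. The unit was read from the Cuffdiff layout of the table, since the header names none. Its columns of log2 fold change and p-value are the authors' own comparison and were not used, nor was their list of changed loci. No column belonged to other samples.

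Log2 ratios of *Yap* mutant over control were computed with no pseudocount over loci whose mean reached 1 FPKM, with values above 0 in both genotypes. A locus passed at 1.2-fold. The design allowed for tests per library, which 1 value per genotype does not permit. The members and the gene lists were chosen with earlier results of these data known. Named members were the 8 highest and 8 lowest by level and by ratio, all stalk, paralog, 5S, Diamond-Blackfan and X-linked genes, and those next to the threshold. Some genes that this rule names are not reported here. From other lists, genes past 1.5-fold were named, and the remaining names were chosen after their values were seen. Locus starts were raised by 1. Annotation came from GENCODE vM21, promoters from RefSeq GRCm38.p6. The computation was tested on simulated data and used Python 3.11.15, numpy 2.4.6, pandas 2.3.3 and matplotlib 3.10.9.

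The alternatives were pseudocounts of 0.1 and 1 FPKM, minimum means of 10 FPKM and none, folds of 1.1 and 1.5, scaling to the same sum over all loci or to a median of 0, loci with 1 symbol, 1 locus per core protein, other denominators for the share and, added after the data were seen, a fold of 1.05, scaling over symbol loci other than members, removal of wide loci and a share over loci with a symbol.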

Additional observations from a re-analysis of the deposited data

How the results depend on the processing

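Of 68 values recomputed under other settings for the counts, the median and the shares of the ribosomal protein loci, 62 stayed within the limits set and 6 moved past them. A change of direction was defined for the median alone, and the median kept its sign under every setting. A minimum mean of 10 FPKM left the same 82 loci, so its counts and median could not move. The limits were 1.5 times for a count, the spread among members (SD 0.040) for the median and the difference between the genotypes for a share. The count past the fold and higher in *Yap* mutant lungs went from 0 to 1 with no minimum mean, through *Rpl3l*, whose 2 values lie under 0.1 FPKM, and to 13 at 1.05-fold. The count past the fold and lower went from 0 to 1 at 1.05-fold. The 21 loci listed lower by any amount became 3 with the same sum over all loci and 9 with the same sum over symbol loci other than members. The median of 0.032 became 0.076 with the same sum over all loci and, within the limit, 0.052 with the same sum over symbol loci other than members. The 61 loci listed higher became 79 and 73 under these scalings. With 82 members in all, a rise from 61 could not pass the limit of 1.5 times, so that limit says nothing here. The share of all loci that were higher went from 48.2% to 60.1% and 53.7%. These scalings subtract a constant of -0.044 or -0.020 from every log2 ratio, beside an interquartile range of 0.055 within the family. The constant of -0.044 rests largely on 3 short loci without a symbol, given above. No paired analysis was possible because the table holds 1 value per genotype, and for the same reason no library could be left out. The error of each value, the depth of each library and the assignment of reads shared with pseudogenes limit all of these values and are not known here.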
